A study of Mus musculus with 19 samples.

Results

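Mature miRNAs of the soleus and the extensor digitorum longus (EDL) were compared in mice of both an inherently high-active strain (C57L/J) and an inherently low-active strain (C3H/HeJ). The comparison took every array labelled soleus, 4 of high-active and 2 of low-active mice, and every array labelled EDL, 2 of high-active and 4 of low-active mice. These are 12 of the 19 arrays of the study, whose remaining arrays held the nucleus accumbens. All 12 arrays came from untreated male mice, 9 weeks old, that had been housed alone with a running wheel that could not turn. Mice 194 and 195 (low-active) and 225 and 227 (high-active) gave both muscles. Mice 223 and 224 (high-active) gave soleus only, and mice 196 and 197 (low-active) gave EDL only. Each strain is inbred, each group held 2 to 4 mice, and whole muscle was extracted, so the fibers were measured together with vessels, nerve, blood and connective tissue. The effect given throughout is soleus minus EDL on the log2 scale of the scaled signal.

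The soleus is a postural calf muscle rich in slow, oxidative fibers, and the EDL is a toe extensor made almost wholly of fast fibers. A miRNA is a short RNA that pairs with messenger RNAs mainly through its seed, bases 2 to 8, and lowers their translation or stability. Some muscle miRNAs lie within introns of myosin genes. miR-208b lies in Myh7, which encodes the slow myosin heavy chain, and miR-499 lies in Myh7b, and both are known to act in a network that favors the slow fiber program. miR-1, miR-133 and miR-206 are the core muscle miRNAs, of which miR-206 is known for its enrichment in slow muscle and in regenerating fibers.

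The mature sequences below are those of the miRNAs on which the comparison turns, from RefSeq (GRCm38.p6), with the seed in capitals. The table held a mature sequence for 261 of the 328 tested miRNAs and for 60 of the 71 that differed between the muscles. The first set holds the 3 miRNAs with the highest rises.
miR-208b-3p: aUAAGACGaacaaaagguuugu
miR-499-5p: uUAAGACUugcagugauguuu
miR-206-3p: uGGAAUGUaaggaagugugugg
miR-208b-3p lies at chr14:54975710-54975731 on the minus strand, within Myh7. miR-499-5p lies at chr2:155622893-155622913 on the plus strand, within Myh7b. Their seeds differ at a single base, G8U from miR-208b-3p to miR-499-5p, counted from the 5′ end. miR-206-3p lies at chr1:20679055-20679076 on the plus strand, outside protein-coding genes, and 3757 bases from miR-133b-3p, with which it shares a precursor transcript.

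The second set belongs to the miR-23/27/24 clusters, of which one is on chromosome 8 and the other, within Aopep, on chromosome 13.
miR-23a-3p: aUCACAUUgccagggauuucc
miR-27a-3p: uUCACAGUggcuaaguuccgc
miR-27b-3p: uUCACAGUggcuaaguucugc
miR-24-3p: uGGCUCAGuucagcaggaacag
miR-27a-3p (chr8:84208727-84208747) and miR-27b-3p (chr13:63300760-63300780) share their seed and differ at C19U, and miR-24-3p is made from both clusters. Such pairs can share signal on an array.

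The third set holds 3 miRNAs detected in the soleus and on no EDL array. miR-201-5p (chrX:67988135-67988156, minus strand) and miR-547-3p (chrX:67988383-67988403, minus strand) are neighbors, with 226 bases between them. miR-3097-5p lies at chr5:35021050-35021072, within Rgs12.
miR-201-5p: uACUCAGUaaggcauuguucuu
miR-547-3p: cUUGGUACaucuuugagugag
miR-3097-5p: cACAGGUGggaagugugugucca

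The fourth set holds miRNAs that were lower in the soleus. miR-193a lies on chromosome 11, and miR-127, miR-434 and miR-410 belong to the imprinted Dlk1-Dio3 cluster on chromosome 12.
miR-193a-5p: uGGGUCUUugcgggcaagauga
miR-193a-3p: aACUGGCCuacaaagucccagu
miR-434-5p: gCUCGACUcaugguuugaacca
miR-434-3p: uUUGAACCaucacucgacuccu
miR-127-3p: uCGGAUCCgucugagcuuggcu
miR-410-3p: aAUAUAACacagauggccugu
miR-181a-5p: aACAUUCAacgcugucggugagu
miR-181b-5p: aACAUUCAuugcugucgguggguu
The last pair, miR-181a-5p and miR-181b-5p, share a seed.

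The arrays carried 2754 probes for 1079 mouse miRNAs. Of these miRNAs, 374 were detected on at least 1 array, and 328 on enough arrays (4) to be tested. The number detected ranged from 263 to 341 in the soleus and from 237 to 332 in the EDL. The 75th percentile of signal ranged from 495 (EDL of mouse 195) to 1480 (soleus of mouse 195), and the dimmest soleus array was that of mouse 223, at 616. After scaling, arrays of the same muscle correlated over the miRNAs at a median of 0.97 (soleus) and 0.98 (EDL), and arrays of different muscles at a median of 0.95. A miRNA was called detected on an array when any of its probes had over 50% of its spots well above background, and signals below the floor, at 2.20 on the log2 scale, were raised to it. miR-1a-3p and miR-133a-3p, which mark skeletal muscle, were detected on all 12 arrays. miR-124-3p, which marks neurons, and miR-200b-3p and miR-141-3p, which mark epithelia, were detected on none. Of 14 epithelial and 26 neural miRNAs listed, 12 and 18 were detected on no array. The epithelial miR-203-3p was detected on 5 soleus and 4 EDL arrays, and miR-205-5p on 3 and 4. The neural miR-212-3p, miR-338-3p and miR-338-5p were detected on all 12.

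Of the 328 tested miRNAs, 71 (21.6%) differed between the muscles at an adjusted p under 0.05 (limma, Benjamini-Hochberg), 22 higher in the soleus (6.71%) and 49 lower (14.9%). At 2-fold or more, 10 were higher and 9 lower. An unadjusted p under 0.05 was reached by 106. The median difference over all tested miRNAs was -0.05. Every soleus array lay above every EDL array for 19 miRNAs (5.79%) and below for 14 (4.27%), and 18 and 14 of these passed the test. Of the 71 miRNAs, 66 had the same direction in all 4 mice that gave both muscles and 70 on all 3 slides. The 71 were chosen on these same arrays, so this agreement is not separate evidence. With slide as a fixed block 20 were higher and 54 lower. With the mouse as a fixed term, which rests the comparison on the 4 mice with both muscles, 11 were higher and 10 lower. How many miRNAs fell also depended on the scaling. Scaled by the median of the common miRNAs in place of their 75th percentile, 23 were higher and 18 lower, while the median over all miRNAs moved to 0.13; without scaling, which moved that median to 0.21, 11 were higher and 1 lower. The soleus arrays had 67.1% to 71.6% of their signal in their 10 brightest miRNAs, and the EDL arrays 70.8% to 76.9%; the part this played in the split between rises and falls was not tested. In whole muscle, fewer cells of a type and less miRNA per cell cannot be told apart.

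**Figure D1:**
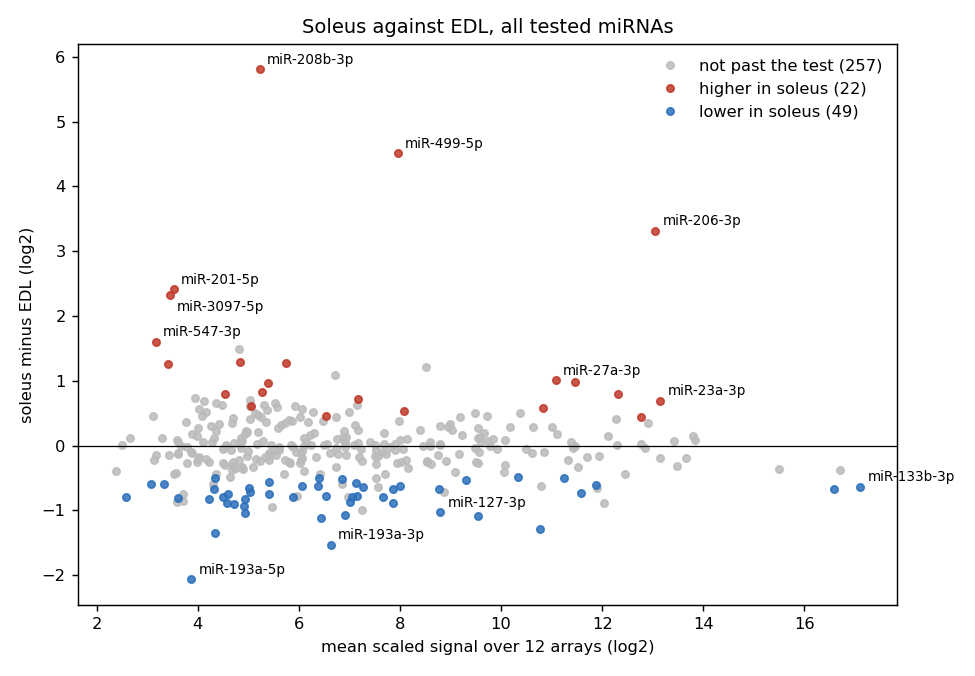
Difference between soleus and EDL (log2) of the 328 tested miRNAs against their mean scaled signal over 12 arrays (log2), each point 1 miRNA. The 3 highest rises are those of miR-208b-3p, whose fitted 5.80 is measured against EDL arrays that all stood at the floor, miR-499-5p at 4.52 and miR-206-3p at 3.31, while the falls reach -2.06 (miR-193a-5p).

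The miRNAs of the slow myosin genes separated the muscles most widely. miR-208b-3p was detected on all 6 soleus arrays and on no EDL array. In the soleus its scaled signal was 9.10, 8.44, 8.34 and 8.94 in high-active mice 223, 224, 225 and 227, and 7.19 and 7.44 in low-active mice 194 and 195. All 6 EDL arrays stood at the floor of 2.20. The soleus was at least 52.3-fold higher, measured against the lowest signal that counted as detected on the EDL arrays (adjusted p = 2.49e-09, limma). Such bounds replace the fold wherever a miRNA was detected on no array of a muscle. They compare the means of all arrays of each muscle, without the strain term, so they need not hold within each strain. Values at the floor do not vary, which makes the SE and p of such a miRNA smaller. Another background correction was normexp on the median signal and background, which added an offset of 50 to every spot. That offset narrows the log2 differences of dim signals. After it the difference was 1.85, still past the test (adjusted p = 0.000273, limma).

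miR-499-5p was read in both muscles, on 6 soleus and 5 EDL arrays. The soleus values ran from 9.71 through a median of 10.33 to 10.71, and the EDL values from 4.78 through 5.72 to 6.28. The ranges lay more than 3 log2 units apart. The difference was 4.52 ± 0.27 (SE), a 22.9-fold higher signal (adjusted p = 8.67e-08, limma), and 3.43 to 5.22 within the 4 mice that gave both muscles. Within slides 1, 2 and 3 it was 4.85, 4.64 and 4.57, and after normexp it was 3.06 (adjusted p = 2.99e-09). Both tested members of this list rose, where 6.71% of all tested miRNAs rose. Their median was 5.16 (2.45 after normexp) against -0.05 over all tested miRNAs. The other 4 arms on the array, miR-208a-3p, miR-208a-5p, miR-208b-5p and miR-499-3p, were detected on no array. miR-208a is the form of the cardiac Myh6 gene.

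Of the 11 core muscle miRNAs on the array, 6 were tested, 1 rose and 3 fell, where 6.71% of all tested miRNAs rose and 14.9% fell. miR-206-3p rose by 3.31 ± 0.29 (SE), a 9.95-fold higher signal (adjusted p = 5.33e-06, limma). Its soleus values were 14.63, 15.11, 15.35 and 15.19 in the high-active mice and 14.01 and 14.17 in the low-active mice, and its EDL values ran from 10.74 through 11.32 to 12.24. No soleus array came near an EDL array. The within-mouse differences were 2.55, 3.43, 4.29 and 4.01 in mice 194, 195, 225 and 227, and those within slides 1, 2 and 3 were 3.80, 2.92 and 3.34.

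miR-133b-3p, the neighbor of miR-206 in its transcript, had the opposite sign. Its soleus values ran from 16.57 through 16.80 to 17.01 and its EDL values from 16.86 through 17.50 to 17.69, so that the ranges overlapped. It fell by 0.63 ± 0.16 (SE; adjusted p = 0.0133, limma), and was lower in the soleus of all 4 mice. miR-133b-3p and miR-133a-3p are nearly alike in sequence, and their signals may be shared. miR-133a-3p fell by 0.67 and miR-133a-5p by 0.51, with adjusted p of 0.0182 and 0.0230 (limma). With the mouse as a fixed term none of these 3 passed the test (adjusted p = 0.115, 0.115 and 0.195). miR-1a-3p, the most studied muscle miRNA, differed by -0.38 (adjusted p = 0.166; 95% interval -0.77 to 0.02), and its sign turned after quantile normalization (0.089). miR-1a-1-5p differed by -0.78 (adjusted p = 0.0926). The 6 tested members had a median of -0.57.

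**Figure D2:**
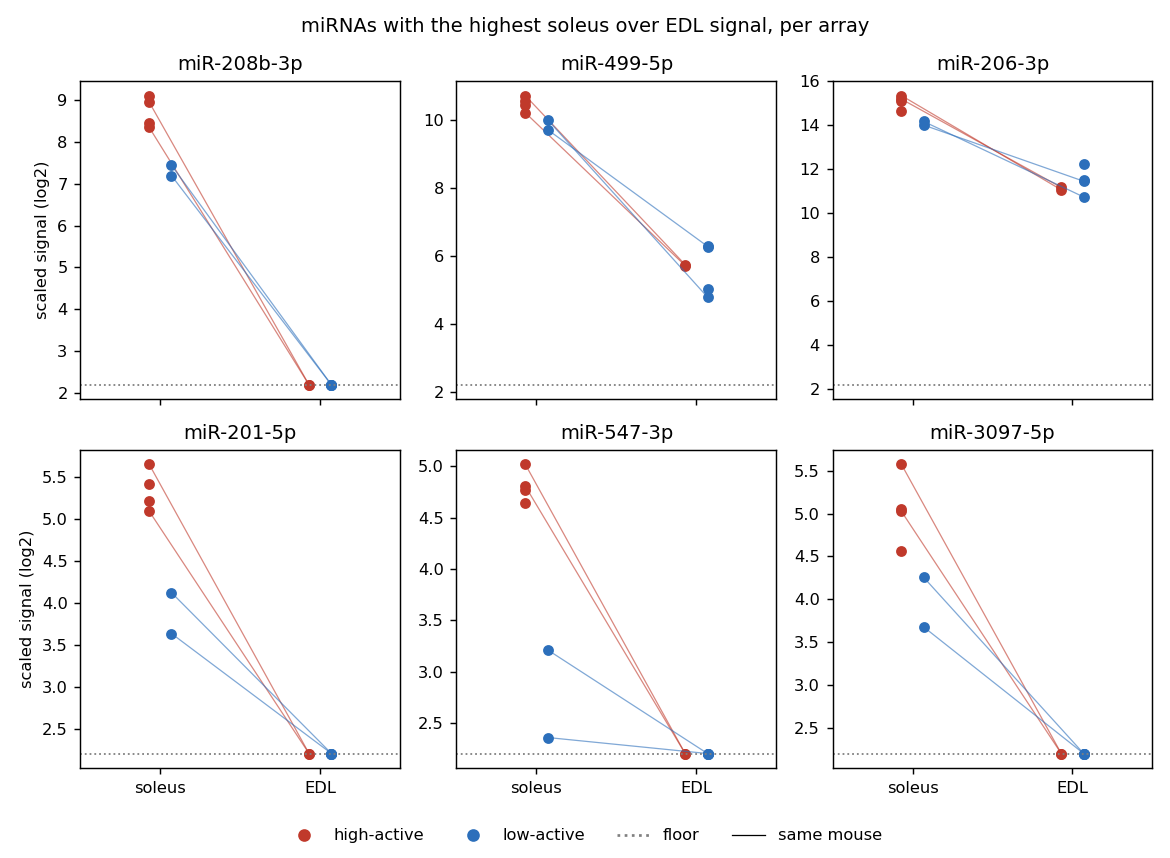
Scaled signal (log2) of 6 miRNAs on each soleus and EDL array, by strain, with lines joining the muscles of the same mouse and the floor dotted. The EDL arrays of miR-208b-3p, miR-201-5p, miR-547-3p and miR-3097-5p sit at the floor of 2.20. For these miRNAs and for miR-206-3p the low-active soleus arrays lie below the high-active ones.

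Besides miR-208b-3p, 4 of the rises were of miRNAs detected on no EDL array. miR-3097-5p was detected on all 6 soleus arrays, at 4.57, 5.05, 5.58 and 5.03 in the high-active mice and 3.68 and 4.26 in the low-active mice. Its soleus signal was higher by at least 4.00-fold (adjusted p = 1.77e-05, limma). miR-201-5p was detected on 5 soleus arrays and was at least 5.15-fold higher (adjusted p = 2.03e-05, limma). Its neighbor miR-547-3p was detected on 4 soleus arrays, all of high-active mice. Its fitted difference was 1.60 (95% interval 0.90 to 2.30; adjusted p = 0.00333, limma). The bound over all soleus arrays, without the strain term, was 3.12-fold. It does not hold for the low-active soleus, where miR-547-3p was undetected, at 2.36 and 3.21. All of them were dim, with the highest soleus value at 5.65. After normexp none of these 3 passed the test, their differences being 0.13, 0.20 and 0.080 (adjusted p = 0.825, 0.730 and 0.882, limma). The offset of 50 in that setting narrows differences between signals this dim, so it cannot decide whether these rises hold. With the brightest probe in place of the mean over all spots, miR-201-5p and miR-547-3p did not pass either (adjusted p = 0.0629 and 0.0698). miR-675-3p, which is cut from the imprinted non-coding RNA H19, was detected on 5 soleus arrays, ran from 3.62 to 4.65 there and from 2.20 to 3.26 in the EDL, and was at least 1.98-fold higher (adjusted p = 0.00142). Its difference turned to -0.036 after normexp. miR-5121, within the ribosomal protein gene Rpl13a, rose by 1.30 ± 0.34 (SE; adjusted p = 0.0150), with overlapping muscles.

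The miR-23/27/24 clusters rose together. These clusters are transcribed as short polycistronic units, and miR-23a is known for lowering the muscle atrophy ubiquitin ligases. Of 11 members on the array 8 were tested, 6 rose and none fell, with a median of 0.74, where 6.71% of all tested miRNAs rose. For 5 of the 8, every soleus array lay above every EDL array, as it did for 5.79% of all tested. miR-24-2-5p rose by 1.28, miR-27a-3p by 1.00, miR-24-3p by 0.79, miR-24-1-5p by 0.79, miR-23a-3p by 0.69 and miR-27b-3p by 0.58. With the software's own signal per miRNA the difference of miR-24-1-5p was -2.75 (adjusted p = 0.452).

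miR-27a-3p measured 11.36 to 11.90 in the soleus, with a median of 11.59, and 9.91 to 11.04 in the EDL, with a median of 10.57. The muscles did not overlap (adjusted p = 0.00239, limma). miR-24-3p measured 12.41 to 13.12 in the soleus, with a median of 12.68, and 11.73 to 12.09 in the EDL, with a median of 11.87 (adjusted p = 0.00290). miR-23a-3p was 13.18 to 13.89 in the soleus and held within 12.71 to 12.81 in the EDL (adjusted p = 0.00290). In each of the 4 mice the median of the 8 members was above 0, at 0.40, 0.58, 0.86 and 1.06 in mice 194, 195, 225 and 227. miR-23b-3p differed by 0.41 (adjusted p = 0.0904) and miR-23a-5p by 0.28 (adjusted p = 0.556). The median of the list was positive under every setting tried, from 0.46 to 0.97. With the mouse as a fixed term, and without scaling, 2 of its members passed the test.

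Both arms of miR-140, which is best known from cartilage and lies within Wwp2, rose without overlap. miR-140-5p rose by 0.71 (adjusted p = 0.00310) and miR-140-3p by 0.54 (adjusted p = 0.00786). miR-132-3p, a CREB-induced miRNA placed here in the neural list, rose by 0.97 ± 0.15 (SE; adjusted p = 0.000916, limma). It measured 5.52 to 6.28 in the soleus and 4.59 to 5.07 in the EDL, which did not overlap. Of the 26 members of that list 6 were tested. Of these, 1 rose and 1, miR-7a-1-3p, fell (6.71% and 14.9% of all tested), with 4 negative differences and a median of -0.24. miR-212-3p, made from the same transcript as miR-132, differed by -0.64 (adjusted p = 0.0561). miR-192-5p and miR-194-5p rose by 0.83 and 0.62 (adjusted p = 0.00151 and 0.0332, limma). They lie side by side on chromosome 19, but miR-194-5p is also made from a locus on chromosome 1, within Iars2. miR-29a-3p, of a family known for lowering collagen transcripts, rose by 0.44 (adjusted p = 0.0265), and miR-29c-5p fell by 0.88 (adjusted p = 0.00384).

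miR-451a, a red cell miRNA that is processed without Dicer, rose by 0.98 ± 0.24 (SE; adjusted p = 0.0104, limma). Its soleus values ran from 11.67 through 11.88 to 12.43 and its EDL values from 10.14 through 11.08 to 11.65. The muscles did not overlap, although the closest arrays measured 11.67 and 11.65. The other tested red cell miRNA, miR-144-3p, was detected on 4 soleus and 2 EDL arrays and differed by 0.68 (adjusted p = 0.573). The summed signal of the red cell list ran from 11.67 to 12.47 in the soleus and from 10.14 to 11.65 in the EDL. It nearly repeats miR-451a, whose mean signal was 11.45 against 4.12 for miR-144-3p. The muscles thus also differed in 1 marker of blood, and the part blood played in other results was not tested. With the mouse as a fixed term the adjusted p of miR-451a was 0.0771.

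Among the miRNAs that fell, those of the Dlk1-Dio3 cluster were the most numerous. This imprinted region carries one of the larger miRNA clusters of the mouse, expressed from the maternal chromosome and known for high levels in the embryo and the brain. Of its 107 entries on the array, 67 were detected on no array and 32 were tested. Of the 32, 20 fell (14.9% of all tested miRNAs fell) and 1 rose, miR-487b-3p, by 0.45 (adjusted p = 0.0334). Their median was -0.76 against -0.05 over all tested miRNAs, and 28 of them had a negative difference. The 28 with a position in the RefSeq table lie within 162.1 kilobases of chromosome 12. Of the 36 tested miRNAs that the table places on chromosome 12, 20 fell and none rose, one of the 20 being miR-3069-3p, which is outside the cluster, while miR-487b-3p has no position in that table.

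Within the cluster, miR-434-5p fell by 1.35 ± 0.17 (SE; adjusted p = 0.000170, limma). It measured 3.87, 3.15, 3.47, 3.64, 4.07 and 3.64 in the soleus of mice 223, 224, 225, 227, 194 and 195, and 4.66 to 5.30 in the EDL. The muscles were apart by more than 0.5 log2 units, although it was detected on 2 soleus and 5 EDL arrays only. With the software's own signal per miRNA its difference was 1.44 and did not pass the test (adjusted p = 0.452). The other arm, miR-434-3p, was detected on all 12 arrays and measured 8.79 to 9.37 (median 8.99) in the soleus and 9.27 to 10.27 (median 10.22) in the EDL. It fell by 1.08 (adjusted p = 0.00151), the single overlap being with the EDL of mouse 195.

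miR-127-3p, which like miR-434 lies antisense to Rtl1 and is known to lower it, measured 8.05 to 8.51 (median 8.24) in the soleus and 8.96 to 9.75 (median 9.40) in the EDL. The muscles did not overlap, and the difference was -1.03 ± 0.16 (SE; adjusted p = 0.000810). miR-410-3p measured 4.00 to 4.85 in the soleus and 4.94 to 5.93 in the EDL, also without overlap, and fell by 1.04 (adjusted p = 0.00151). Further members among the 15 largest falls were miR-539-5p (-0.93), miR-409-5p (-0.90), miR-329-3p (-0.89) and miR-495-3p (-0.89). With the software's signal the differences of miR-410-3p and miR-495-3p were 0.40 and 2.01, and neither passed the test (adjusted p = 0.904 and 0.234). miR-433-5p, detected on 4 EDL arrays and no soleus array, was at least 1.63-fold lower in the soleus (adjusted p = 0.00290). For 6 of the 32, every soleus array lay below every EDL array (4.27% of all tested).

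The cluster did not move as 1 block. miR-381-3p, miR-3072-5p and miR-300-3p had positive differences that did not pass the test, as did the negative differences of miR-136-5p (-0.99, adjusted p = 0.0777) and miR-376a-3p (-0.85, adjusted p = 0.0954). Both of the latter varied widely between mice. The median over the cluster was -0.87, -0.44, -0.52 and -0.58 in mice 194, 195, 225 and 227, and 29, 29, 25 and 29 of its 32 members were lower in the soleus of these mice, against 184, 205, 131 and 197 of the 328 tested. By strain, its median was -0.77 in high-active and -0.70 in low-active mice, and by slide it was -0.50, -0.61 and -0.65. The median stayed negative under every setting tried, from -0.87 to -0.36. How many members fell did not hold as well: 8 did when arrays were scaled by the median of the common miRNAs, 5 with the mouse as a fixed term, none without scaling, and 12 without the soleus of mouse 195. After normexp 7 fell, and with the software's own signal per miRNA 8 did.

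**Figure D3:**
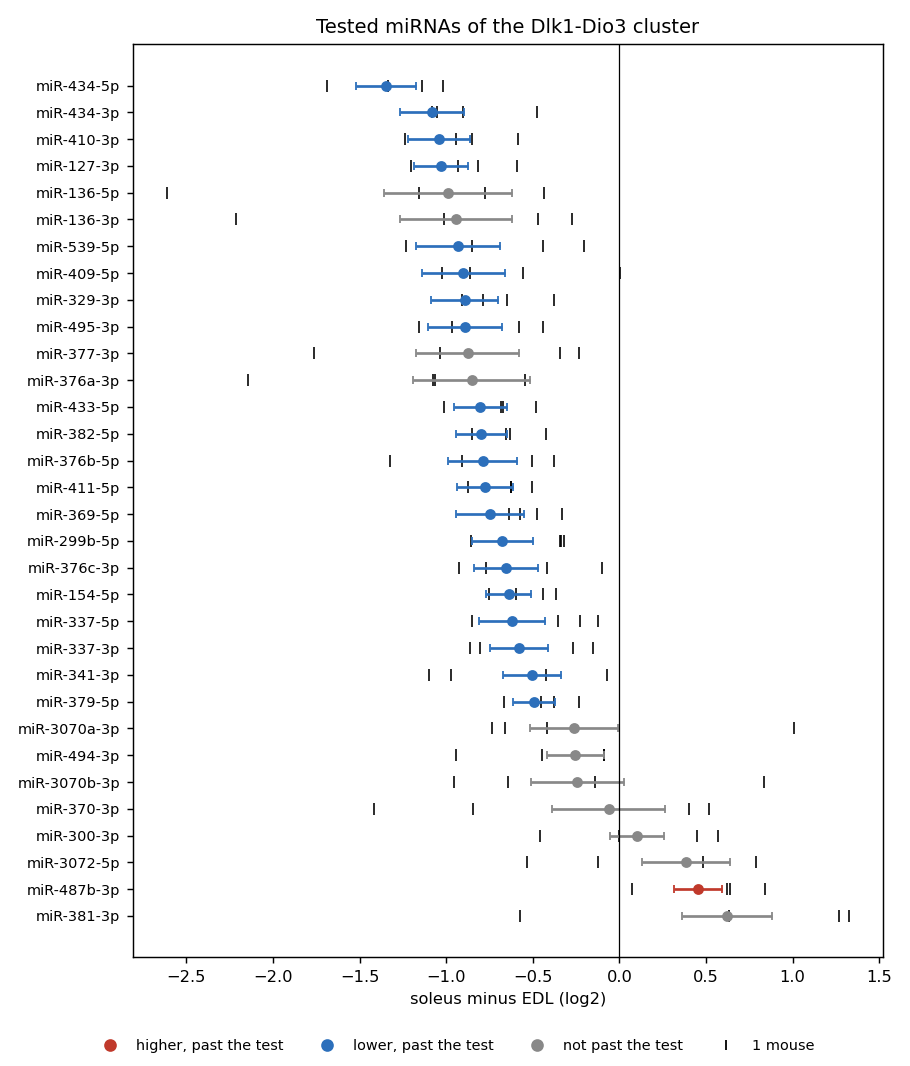
Difference between soleus and EDL (log2) of the 32 tested miRNAs of the Dlk1-Dio3 cluster, with points for the fitted difference, bars for its SE and black ticks for the 4 mice that gave both muscles. The points run from -1.35 (miR-434-5p) to 0.62 (miR-381-3p), with 28 of 32 below 0.

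The largest fall was of miR-193a-5p, and its 3p arm came next. miR-193a-5p measured 2.20, 2.26, 2.20 and 2.20 in the high-active soleus, 4.01 and 3.23 in the low-active soleus, and 4.26 to 5.88 (median 5.14) in the EDL. It was detected on 2 soleus and 5 EDL arrays, the muscles did not overlap, and the difference was -2.06 ± 0.28 (SE; adjusted p = 0.000288, limma), a 4.18-fold higher EDL signal. Since 3 soleus arrays were at the floor, that fold depends on where the floor is set. miR-193a-3p measured 4.14 to 7.14 in the soleus and 6.22 to 8.09 in the EDL, and fell by 1.53 ± 0.43 (SE; adjusted p = 0.0208), with overlap.

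The miRNAs of one locus fell together. miR-486 and miR-3107 come from opposite strands of the same place, within an intron of ankyrin 1, and miR-486 is known from muscle and red cells. miR-3107-5p fell by 1.28 (adjusted p = 0.00368), miR-3107-3p by 1.12 (adjusted p = 0.00304) and miR-486-3p by 1.07 (adjusted p = 0.00330). miR-3107-5p measured 9.77 to 10.50 in the soleus and 10.30 to 12.03 in the EDL, the lowest EDL array being that of mouse 195. Their arms are nearly alike and may share signal, so they are not separate evidence. Their direction was the opposite of that of miR-451a, the red cell miRNA.

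Of 5 tested miRNAs of the miR-181 family, which is known for acting in myoblast differentiation and in lymphocytes, 3 fell (14.9% of all tested). miR-181b-5p measured 6.53 to 6.92 in the soleus and 7.32 to 7.75 in the EDL, without overlap, and fell by 0.78 (adjusted p = 0.00123). miR-181a-5p fell by 0.62 (adjusted p = 0.00635), also without overlap, and miR-181a-2-3p was at least 1.53-fold lower (adjusted p = 0.0106). miR-181c-5p and miR-181d-5p, of another cluster with the same seed family, had positive differences, that of miR-181c-5p being 0.36 (95% interval 0.04 to 0.68), which did not pass the test after adjustment.

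**Figure D4:**
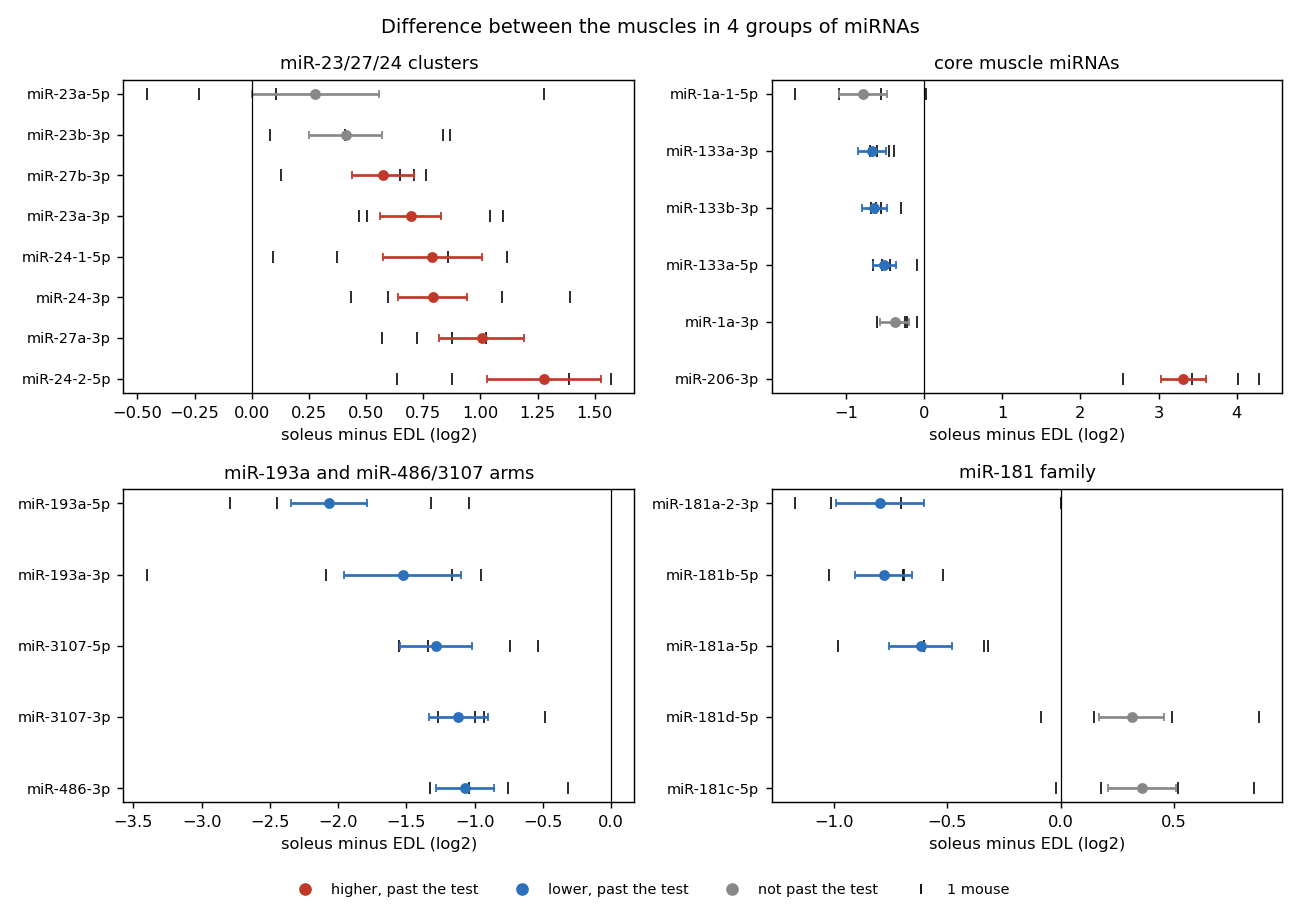
Difference between soleus and EDL (log2) in the miR-23/27/24 clusters, the core muscle miRNAs, the arms of miR-193a, miR-486 and miR-3107, and the miR-181 family, with points for the fitted difference, bars for its SE and black ticks for 4 mice. All 8 members of the miR-23/27/24 clusters lie above 0, and miR-206-3p at 3.31 is the one core muscle miRNA above 0.

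Among miRNAs linked to mitochondrial metabolism, 6 of 9 on the array were tested, 1 rose (miR-23a-3p) and 2 fell (6.71% and 14.9% of all tested), with a median of -0.13. miR-378a-3p, which lies within the gene of the coactivator PGC-1beta, measured 11.01 to 11.55 in the soleus and 11.16 to 12.42 in the EDL and fell by 0.73 (adjusted p = 0.0207). The closely similar miR-378b fell by 0.60 (adjusted p = 0.0309). Both had overlapping muscles, and neither passed the test with the mouse as a fixed term (adjusted p = 0.120 and 0.209). The other arm of the same precursor, miR-378a-5p, was detected on all 12 arrays, differed by -0.013 and did not pass the test. Of 5 tested miRNAs in Hox clusters 2 fell (14.9% of all tested), miR-196b-5p by 0.66 without overlap (adjusted p = 0.00189) and miR-615-3p by 0.60 (adjusted p = 0.0439). miR-148a-3p fell by 0.79 (adjusted p = 0.0135), miR-100-5p by 0.49 (adjusted p = 0.0339) and miR-7a-1-3p by 0.75 (adjusted p = 0.0332). The call of miR-100-5p held under 18 of 32 alternatives and that of miR-7a-1-3p under 16 of 31, with adjusted p of up to 0.704 and 0.545. Outside the lists, miR-455-3p fell by 0.83 (adjusted p = 0.00142), without overlap, but differed by 0.44 with the software's signal (adjusted p = 0.887). The lists held 163 of the 328 tested miRNAs, with 34 falls and 15 rises. The other 15 falls and 7 rises were of miRNAs that no list held (14.9% of all tested fell and 6.71% rose).

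In 13 lists with 76 tested members no miRNA passed the test (21.6% of all tested did), and their medians ran from -0.18 to 0.21. These were the let-7 (11 tested), miR-30 (10), miR-17 to miR-92a (9), miR-15 and miR-16 (5) and miR-221 and miR-222 (2) families, the Sfmbt2 (12), Clcn5 (5) and miR-322 to miR-503 (5) clusters, and the miRNAs marking vessels (4), mesenchyme (4), leukocytes (3), inflammation (4) and epithelia (2). The let-7 median was 0.03 and the miR-30 median -0.01. miR-126-3p, which marks endothelium, differed by 0.34 (adjusted p = 0.0640; 95% interval 0.08 to 0.60), every soleus array being above every EDL array. The other vessel miRNAs differed by 0.24 (miR-126-5p), -0.05 (miR-143-3p) and -0.29 (miR-145a-5p), and the list had a median of 0.093. The summed signal of the leukocyte list ran from 9.66 to 10.14 in the soleus and from 9.41 to 10.01 in the EDL. The epithelial list was carried by miR-203-3p and miR-205-5p, both with muscles that overlapped, and its other 12 members were detected on no array. Of the neural list, 18 of 26 members were detected on no array.

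Whether the difference between the muscles depended on the strain was tested by an interaction term over the 4 groups. It passed for 2 of 328 miRNAs (0.61%; 19 at an unadjusted p under 0.05), for none without scaling, and for 0 to 2 when 1 array was left out (0 without the soleus of mouse 223, 224, 227 or 194 or the EDL of mouse 195). miR-547-3p measured 4.64, 4.77, 4.81 and 5.02 in the high-active soleus and 2.36 and 3.21 in the low-active soleus, and all 6 EDL arrays stood at the floor. It was detected on every high-active soleus array and on no low-active array of either muscle, so no fold is given for the low-active mice. The difference was larger in high-active mice by 2.03 ± 0.31 (SE; adjusted p = 0.0115, limma). miR-201-5p measured 5.21, 5.42, 5.09 and 5.65 in the high-active soleus and 3.63 and 4.12 in the low-active soleus, and all EDL arrays stood at the floor. Its fitted difference from the floor was 3.15 in high-active and 1.68 in low-active mice, larger by 1.47 ± 0.28 (SE; adjusted p = 0.0418). With every EDL array at the floor, both tests compare the soleus of 4 high-active with that of 2 low-active mice. The floored EDL values do not vary, which makes the pooled spread, and so the SE and p of both tests, smaller. The next 3 did not pass: miR-208b-3p (1.39, adjusted p = 0.0955), miR-381-3p (1.40, adjusted p = 0.170) and miR-328-3p (0.98, adjusted p = 0.499). For miR-206-3p the difference was 3.97 in high-active and 2.64 in low-active mice (adjusted p of the interaction = 0.641), and for miR-499-5p it was 4.75 and 4.28 (adjusted p = 0.988).

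**Figure D5:**
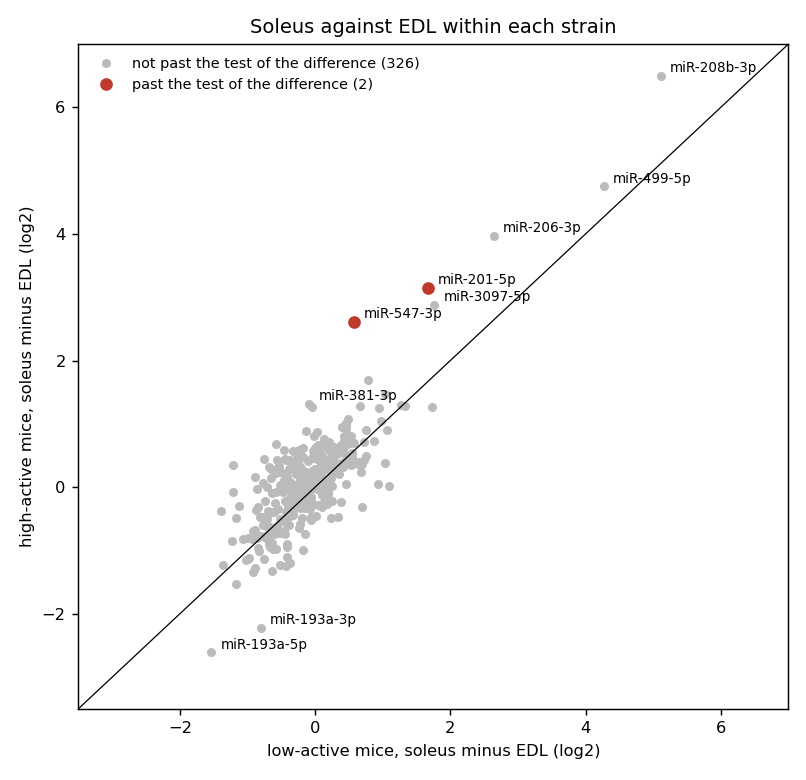
Difference between soleus and EDL (log2) within high-active mice (vertical axis) against that within low-active mice (horizontal axis) for the 328 tested miRNAs, each point 1 miRNA, with the line of equal differences. miR-547-3p and miR-201-5p, in red, passed the test of the interaction and lie above the line, their EDL arrays all being at the floor.

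Within strains, 19 miRNAs were higher and 19 lower in the soleus of high-active mice, and 5 higher and 9 lower in that of low-active mice (11.6% and 4.27% of those tested), on arrays of 4 and 2 mice in one strain and 2 and 4 in the other. These counts were not tested against each other. miR-208b-3p, miR-499-5p, miR-206-3p, miR-201-5p and miR-3097-5p were past the threshold within each strain, with adjusted p in low-active mice of 1.81e-08, 3.32e-05, 0.000438, 0.000347 and 0.00117 (limma). For miR-208b-3p, miR-201-5p and miR-3097-5p these p rest on EDL arrays that all stood at the floor. In low-active mice miR-201-5p was detected in the soleus of mouse 195 but not in that of mouse 194.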

How the data were processed

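The 12 muscle arrays were single-dye (Cy3) Agilent mouse miRNA arrays on 3 slides. The authors deposited a scanner file per array, with the intensity of each spot after background subtraction by Feature Extraction 10.7.1.1 and with its flags, not normalized across arrays. Arrays of poor signal had been removed by the authors. The series value table, normalized by the authors, was not used here. Processed intensities of mouse miRNA spots were averaged per miRNA, leaving out control and outlier spots (4.12% to 5.71% of spots per array; no spot was saturated). Arrays were scaled to their 75th percentile over the miRNAs detected on all 12, floored at 4.60 (the lowest signal that still counted as detected, as a median across arrays) and taken to log2. miRNAs detected on at least 4 arrays and above the floor on some array were fitted with limma 3.58.1 in R 4.3.3 (data.table, version 1.17.8, and jsonlite 2.0.0), with terms for tissue and strain, the mouse as a random block (correlation 0.13) and Benjamini-Hochberg adjustment at 0.05. The mouse numbers pair muscles of the same animal. The correlations of their deviations were 0.32, 0.19, -0.47 and -0.23 in mice 194, 195, 225 and 227. The script was tested on simulated data. The number of arrays limits the precision (median SE 0.20).

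The miRNAs named were the 15 largest rises and 15 largest falls, the myosin and core muscle miRNAs, called members of the marker lists, the 3 brightest of other lists, the 5 brightest in all and the 5 smallest p of the interaction; others named were chosen after their values were seen. Comparison, members and lists were chosen with earlier results of these data known. Sequences and host genes are from RefSeq (GRCm38.p6). Alternatives covered scaling, background, probe summary, floor, filter, blocks, moderation, weights and leaving out each array. Normexp used the median spot signal, since the mean was not in the files used, and added an offset of 50 to each spot. The use of the median and the joint omission of the dimmest array of each muscle were added after seeing the data.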

Additional observations from a re-analysis of the deposited data

Results flagged for a closer look

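Some values stood far from the others of their group of 4 arrays. Chance marks about 1 group in 20, and 178 groups of named miRNAs were looked at, of which 13 were marked. In the high-active soleus, the array of mouse 223, the dimmest of its muscle, stood apart for miR-451a at 12.43 (the others 11.67 to 11.73), miR-3963 at 16.86 (15.23 to 15.34), miR-3107-5p at 9.767 (10.4 to 10.5), miR-29a-3p at 12.89 (13.09 to 13.13) and miR-181b-5p at 6.525 (6.8 to 6.854). The array of mouse 225 did for miR-195a-5p at 10.85 (10.6 to 10.62). In the low-active EDL, the array of mouse 195, the dimmest of all 12, stood apart for miR-434-3p at 9.267 (10.13 to 10.27), miR-133a-5p at 10.87 (11.5 to 11.6), miR-7a-1-3p at 4.681 (5.888 to 6.025), miR-145a-5p at 7.877 (8.822 to 8.972) and miR-10a-5p at 8.002 (8.688 to 8.707). The array of mouse 196 did for let-7a-5p at 14.04 (13.72 to 13.76) and miR-15a-5p at 9.304 (9.752 to 9.78). The part that signal strength played in these values was not tested. Without the dimmest array of each muscle, 36 miRNAs were higher in the soleus and 66 lower, and the median difference over all miRNAs moved to -0.14.

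The soleus minus EDL difference of high-active mice exceeded that of low-active mice by 2.03 for miR-547-3p and by 1.47 for miR-201-5p, by the test of the interaction. Neither held under every alternative.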

How the results depend on the processing

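Counts are given as miRNAs higher and lower in the soleus, 22 and 49 in the report, of which 69.0% were lower. With the 75th percentile over all mouse miRNAs they were 19 and 31; without scaling 11 and 1 (8.33% lower); with the median over common miRNAs 23 and 18 (43.9%); after normexp 8 and 18; with the software's signal per miRNA 18 and 22 (55%); over miRNAs detected on all 12 arrays 11 and 31; with array weights 42 and 81. The mouse numbers pair the muscles, and with the replicate block as a fixed mouse term they were 11 and 10 (47.6%); with no replicate block 21 and 46. Without the dimmest array of each muscle they were 36 and 66, at 2-fold 10 and 9, within high-active mice 19 and 19, and within low-active mice 5 and 9. Leaving out each array gave 18 to 34 higher and 25 to 64 lower. Without the EDL of mouse 195 they were 34 and 64, without the soleus of mouse 195 18 and 25, and without the EDL of mouse 227 or 194 the falls were 31. The interaction passed for 1 miRNA with the all-miRNA percentile, 1 with no replicate block and 1 with slide as a block, 0 without scaling or without both dimmest arrays, and 0 to 2 with 1 array left out (0 without the soleus of 223, 224, 227 or 194 or the EDL of 195). Among named miRNAs past the test, those that turned were miR-675-3p after normexp (-0.036) and, with the software's signal, miR-24-1-5p (-2.75), miR-434-5p (1.44), miR-410-3p (0.40), miR-495-3p (2.01) and miR-455-3p (0.44). The causes were not tested. Of the named miRNAs, miR-208b-3p, miR-499-5p, miR-206-3p and miR-27a-3p passed the test in the same direction under every alternative that could be fitted. Dim miRNAs have a bound in place of a fold, and the low-active soleus and high-active EDL rest on 2 mice each.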
